A study of Mus musculus with 2 samples.

Results

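The T-cell receptor complex and its coreceptors were followed as 10 genes of the 27998 in the files: Cd3d, Cd3e, Cd3g, Cd247, Cd8a, Cd8b1, Cd4, Lck, Lat and Cd2. They were taken by symbol, and each was measured in gated cells, meaning cells in which C1qa, C1qb and C1qc, complement genes of macrophages, made up under 0.2% of the unique molecular identifiers (UMIs) and which held at least 1 UMI of Cd3e, Cd3g or Ncr1. The gate held 305 of 2922 cells in the untreated library and 348 of 3276 cells in the NAM library. TSA is a mammary carcinoma cell line of BALB/c origin, and the cells profiled were CD45+ leukocytes, enriched with magnetic beads from TSA tumours grown in female BALB/c mice. One group drank plain water, and the other drank water with 0.5% NAM (nicotinamide, the amide of niacin) for 10 days. Ages of these mice are not stated in the labels. Tumours of 3 mice were pooled in each group and each pool gave 1 library, so the mice cannot be told apart, nor can the effect of NAM from that of the library, and no test between the groups was possible. The question was how much RNA of the receptor complex the infiltrating lymphocytes held with and without NAM, with the share of cells that hold a gene kept apart from the level in the cells that hold it.

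A T cell reads antigen with a receptor whose clonal chains have no signalling tail of their own. The signal is passed by the CD3 gamma, delta and epsilon chains and by the zeta chain, the product of Cd247, whose tails are phosphorylated by the kinase LCK. CD8, a pair of the alpha and beta chains encoded by Cd8a and Cd8b1, and CD4 bring LCK to the receptor when they bind MHC class I or class II molecules. The adaptor LAT then gathers the downstream enzymes, and CD2 is an adhesion receptor for CD48 that T cells and natural killer cells both carry.

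In GRCm38 the genes of the 3 CD3 chains lie beside each other on chromosome 9, Cd3g at chr9:44969572-44980431 on the minus strand, Cd3d at chr9:44981786-44987339 on the plus strand and Cd3e at chr9:44998740-45009627 on the minus strand. Cd3g and Cd3d are divergent, with 1354 bases between them. Cd8b1 (chr6:71322788-71337494) and Cd8a (chr6:71373427-71379173) follow each other on the plus strand of chromosome 6, 35932 bases apart. The other members stand alone, Cd247 at chr1:165788681-165877277, Cd4 at chr6:124864692-124888221, Lck at chr4:129548344-129573641, Lat at chr7:126363824-126369570 and Cd2 at chr3:101275899-101287939. Promoter windows from RefSeq (GRCm38.p6, 250 bases before to 50 bases after the start of the gene) were matched for 7 of the 10 members, not for Cd8b1, Cd4 and Cd2. The windows of the 3 CD3 chains are shown because these genes were detected together in most gated cells, and that of Cd8a because its summed RNA differed most between the libraries. They are written 5′ to 3′ on the strand of the gene, and capitals mark every match, on either strand, to the 7 motifs searched, named below. The windows are chr9:44980382-44980681 for Cd3g, chr9:44981536-44981835 for Cd3d, chr9:45009562-45009861 for Cd3e and chr6:71373177-71373476 for Cd8a.
Cd3g: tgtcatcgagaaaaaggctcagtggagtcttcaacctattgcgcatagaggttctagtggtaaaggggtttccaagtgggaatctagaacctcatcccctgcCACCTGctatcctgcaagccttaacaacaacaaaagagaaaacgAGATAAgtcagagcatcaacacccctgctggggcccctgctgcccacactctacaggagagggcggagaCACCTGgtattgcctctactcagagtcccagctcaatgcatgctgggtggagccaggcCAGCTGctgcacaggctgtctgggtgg
Cd3d: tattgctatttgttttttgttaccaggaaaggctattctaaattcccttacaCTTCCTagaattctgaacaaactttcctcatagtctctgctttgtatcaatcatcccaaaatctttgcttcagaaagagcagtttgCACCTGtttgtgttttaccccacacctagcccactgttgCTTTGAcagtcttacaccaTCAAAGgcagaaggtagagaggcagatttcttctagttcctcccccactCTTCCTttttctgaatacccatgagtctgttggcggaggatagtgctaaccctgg
Cd3e: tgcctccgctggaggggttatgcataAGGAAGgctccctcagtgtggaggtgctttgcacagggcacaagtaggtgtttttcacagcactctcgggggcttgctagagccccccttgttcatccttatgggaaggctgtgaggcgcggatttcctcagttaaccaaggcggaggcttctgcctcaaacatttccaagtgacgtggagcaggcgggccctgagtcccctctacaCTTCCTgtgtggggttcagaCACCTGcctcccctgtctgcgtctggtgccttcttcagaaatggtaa
Cd8a: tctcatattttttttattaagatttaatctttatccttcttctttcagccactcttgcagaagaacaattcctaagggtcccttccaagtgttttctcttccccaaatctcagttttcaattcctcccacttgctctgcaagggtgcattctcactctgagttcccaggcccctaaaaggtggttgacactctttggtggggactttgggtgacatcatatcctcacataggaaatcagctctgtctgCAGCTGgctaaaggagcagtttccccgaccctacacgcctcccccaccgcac

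The 7 members had 8 windows, since Lck had 2. The E-box CACCTG was in 6 of the 8 windows, those of 5 members (all 3 CD3 chains, Cd247 and both of Lck), against 20.2% of 32851 RefSeq windows of the same length. The other E-box searched, CAGCTG, was in the windows of Cd3g and Cd8a, against 16.3% of all windows. The ETS letters AGGAAG were in 6 windows, those of 5 members (Cd3d, Cd3e, Cd247, both of Lck, and Lat), against 35.4% of all. The TCF/LEF letters CTTTGA were in those of Cd3d and Cd247, against 16% of all. The RUNX letters TGTGGT were in 1 window of Lck and that of Lat, against 16.8% of all. The GATA letters AGATAA were in that of Cd3g alone, against 11.2% of all, and the TATA letters TATAAA in no member's window, against 13.6% of all. In the sequences above, capitals mark 5 matches in the Cd3d window (1 E-box, 2 ETS and 2 TCF/LEF), 4 in that of Cd3g (3 E-boxes and 1 GATA), 3 in that of Cd3e (1 E-box and 2 ETS) and a single E-box in that of Cd8a. None of the searched motifs overlapped another in these windows. A match is a string of letters and not evidence of binding.

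Both libraries were of like depth. The untreated library held 29161823 UMIs with a median of 9056 per cell and the NAM library 32090120 with a median of 9128, and 11 barcodes occurred in both libraries. Gated cells were 10.4% of the untreated library (95% Clopper-Pearson interval 9.35 to 11.6) and 10.6% of the NAM library (9.59 to 11.7). They were smaller than the C1q-high cells outside the gate, with a median of 4920 and 4601.5 UMIs against 9676 and 9775. All intervals here cover counting error only, and not the spread between mice. The T-cell receptor constant genes Trac, Trbc1, Trbc2, Trdc, Tcrg-C1, Tcrg-C2 and Tcrg-C4 were not analysed here. Of the T-cell markers, Cd5, Cd6, Cd28 and Thy1 were detected, at a summed 829 CPM (UMIs of the gene per 1000000 UMIs of the cells) in gated untreated cells and 824 in gated NAM cells. All 8 markers of natural killer (NK) cells were detected, at a summed 1533 and 1145 CPM. Ncr1 is one of them, at 226 and 135 CPM, and since it admits cells to the gate its detection was set by the rule. Not every marker of this list is particular to NK cells, as Klrk1 was found in 81.4% and 81.0% of the gated cells with Cd8a or Cd8b1. Macrophage and monocyte markers (10 of 11 were measured, and all 10 detected) summed to 3034 and 3472 CPM, of which Lyz2 alone made up 1067 and 1651 CPM and the 9 others 1967 and 1821. C1qa, C1qb and C1qc, which the gate caps, are among these 9. Dendritic cell markers (6 of 6) summed to 1385 and 1830 CPM, of which H2-Aa, a class II gene that C1q-high cells also held at 6442 and 8371.5 CPM, made up 1319 and 1806 and the 5 others 66.7 and 23.1. In 38 untreated and 54 NAM gated cells (12.5% and 15.5%) there were 3 or more UMIs of Csf1r, Cd68, Mpeg1 and Adgre1, and doublets were not removed. A single UMI of the gate genes admitted 42 untreated and 49 NAM cells, and 27 and 41 of these were among the cells with such myeloid UMIs. At the edge of the gate, 20 of 77 untreated and 21 of 103 NAM cells with C1q at 0.1% to 0.2% of their UMIs were inside it. Of the cells with C1q at 0.2% to 0.4%, 10 of 67 and 2 of 74 held a gate gene and were outside it.

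The RNAs of the CD3 chains were the most abundant of the members in gated cells, and their summed levels were higher in the NAM library. Cd3g, the gamma chain, stood at 956 CPM in untreated and 1212 CPM in NAM cells (exact Poisson interval of the latter 1167 to 1259), a log2 ratio of NAM over untreated of 0.34 (exact conditional binomial interval 0.26 to 0.43). Cd3d, the delta chain, stood at 535 and 715 CPM, a log2 ratio of 0.42 (0.30 to 0.53). Cd3e, the epsilon chain, stood at 475 and 674 CPM, a log2 ratio of 0.50 (0.39 to 0.62). For these 3 chains the intervals of both libraries did not overlap, and the relative amounts of the chains moved little. Cd3g made up 46.7% of the UMIs of the 3 CD3 chains and zeta together in untreated and 45.1% in NAM cells, Cd3d 26.1% and 26.6%, Cd3e 23.2% and 25.1%, and Cd247 4.00% and 3.31%.

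Split into the share of cells and the level, the division of the difference for the CD3 chains turned in part on depth. A UMI of Cd3d was found in 200 of 305 untreated cells, 65.6% (59.9 to 70.9), and in 270 of 348 NAM cells, 77.6% (72.8 to 81.9), while the level per positive cell, the UMIs of the gene per 10000 UMIs of the cells that hold it, was 9.70 and 10.3. The log2 ratio was 0.24 for the share (-0.03 to 0.51) and 0.09 for the level (-0.02 to 0.20). Cd3e was found in 63.6% (57.9 to 69.0) and 77.9% (73.1 to 82.1) of cells at a level of 8.53 and 9.06, log2 ratios of 0.29 and 0.09. Cd3g was in 76.4% and 85.1% of cells at a level of 13.0 and 15.0, with a level ratio of 0.20 (0.12 to 0.29) and a share ratio of 0.15. Thinned to 3000 UMIs per cell, the log2 ratios of the share and of the mean UMIs per positive cell were 0.24 and 0.21 for Cd3d, 0.34 and 0.24 for Cd3e and 0.20 and 0.18 for Cd3g. At equal depth both thus stood close together for Cd3d and Cd3g. The interval of the thinned share ratio of Cd3g ran from -0.07 to 0.46, so no order of share and level can be read for it. Since a UMI of Cd3e or Cd3g admits a cell to the gate, the shares of these chains are partly set by the rule and are a description, while Cd3d was not used. Single cells spread widely in both libraries, from 1 UMI to 33 (untreated) and 31 (NAM) for Cd3g, with medians of 7 and 8 UMIs in positive cells. All 3 chains were found together in 186 of 305 untreated cells (60.98%) and 246 of 348 NAM cells (70.7%).

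Cd247 was sparse, and its value in the libraries did not differ beyond counting error. A UMI was found in 108 untreated cells, 35.4% (30.0 to 41.1), and 139 NAM cells, 39.9% (34.8 to 45.3), with 82.0 and 89.1 CPM, a log2 ratio of 0.12 (-0.19 to 0.43). The median positive cell held 1 UMI in both libraries and 65.7% and 69.8% of the positive cells held a single UMI, so its level per positive cell cannot be read.

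**Figure D1:**
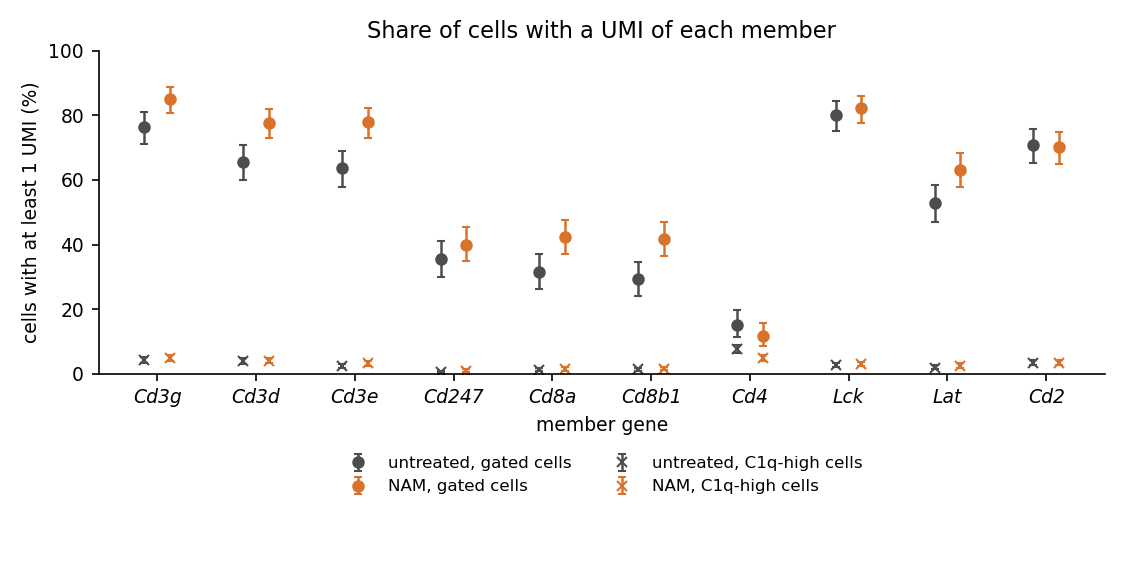
Share of cells with at least 1 UMI of each member in percent, for gated cells (circles) and C1q-high cells (crosses) of the untreated (grey) and NAM (orange) library, with 95% Clopper-Pearson intervals that cover counting error only. In gated cells Cd3d, Cd3e, Cd3g, Cd8a, Cd8b1 and Lat sit higher in NAM, Lck and Cd2 lie level, and in C1q-high cells Cd4 is the member in most cells in the untreated library.

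The genes of the CD8 coreceptor were found in more gated cells of the NAM library. Cd8a was found in 96 untreated cells, 31.5% (26.3 to 37.0), and 147 NAM cells, 42.2% (37.0 to 47.6), a log2 ratio of 0.42 (0.04 to 0.81). Cd8b1 was found in 89 cells, 29.2% (24.1 to 34.6), and 145 cells, 41.7% (36.4 to 47.0), a log2 ratio of 0.51 (0.12 to 0.91). The shares in cells thinned to 3000 UMIs were 27.5% and 38.2% for Cd8a and 27.9% and 39.1% for Cd8b1, so the order held at equal depth. In the deeper C1q-high cells, Cd8a was found in 1.13% and 1.37% of cells and Cd8b1 in 1.32% and 1.55%. Where these UMIs come from was not tested, and doublets were not removed.

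The levels of the 2 chains per positive cell differed in opposite directions. Cd8a stood at 8.95 UMIs per 10000 in untreated and 9.85 in NAM positive cells, a log2 ratio of 0.14 (-0.03 to 0.31), and Cd8b1 at 10.9 and 9.58, a log2 ratio of -0.19 (-0.35 to -0.03). Thinned to equal depth, the mean UMIs of Cd8b1 per positive cell were 3.71 and 3.67, so its lower level in NAM was not found in the thinned counts. Summed over the gate, Cd8a came to 230 and 367 CPM, the largest log2 ratio among the members at 0.68 (0.51 to 0.85), and Cd8b1 to 262 and 342 CPM, a log2 ratio of 0.38 (0.22 to 0.55). Cd8a made up 451 of the 966 UMIs of both chains in untreated cells, 46.7% (43.5 to 49.9), and 811 of 1566 in NAM cells, 51.8% (49.3 to 54.3). Both chains were mostly found in the same cells. Of Cd8a-positive cells, 86.5% (78.0 to 92.6) without NAM and 91.2% (85.4 to 95.2) with NAM also held Cd8b1.

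**Figure D2:**
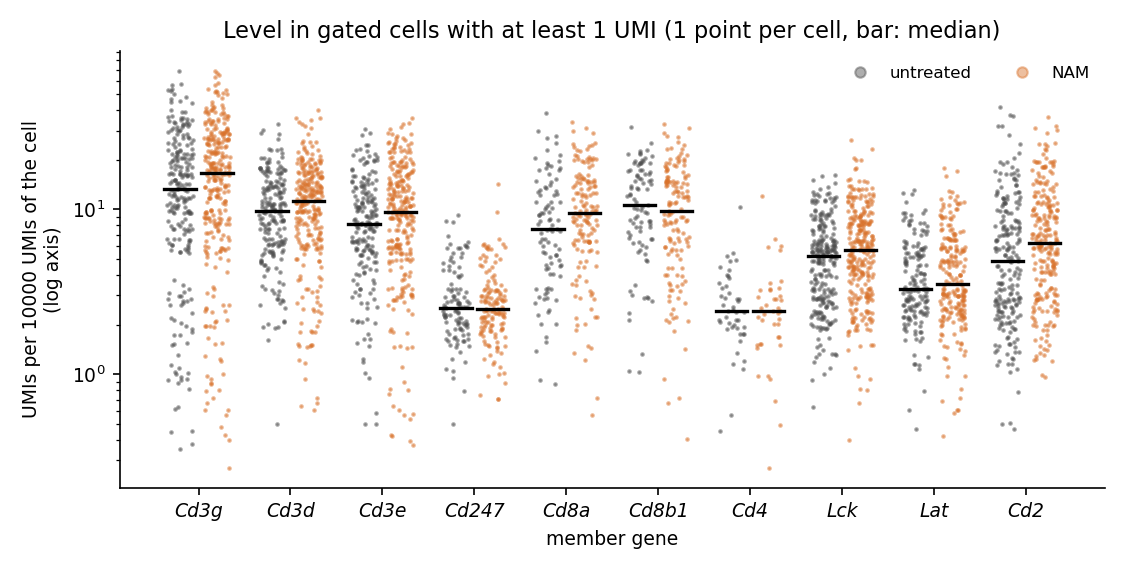
UMIs of each member per 10000 UMIs of the cell on a log axis, for every gated cell with at least 1 UMI of that member in the untreated (grey) and NAM (orange) library, with black bars at the medians. The cells of both libraries overlap over nearly their whole range for every member, and the points of Cd247 and Cd4 lie close to the value of a single UMI.

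Cd4 was the one member with a lower summed level in NAM, and most of its RNA lay outside the gate. It was found in 46 untreated gated cells, 15.1% (11.3 to 19.6), and 41 NAM gated cells, 11.8% (8.59 to 15.6), with 37.2 and 25.8 CPM, a log2 ratio of -0.53 (-1.05 to -0.01). These are 73 and 57 UMIs in all, the median positive cell held 1 UMI, and the interval of the share ratio of -0.36 included 0. Without the cells that held 3 or more UMIs of Csf1r, Cd68, Mpeg1 and Adgre1, the log2 ratio of CPM was -0.37 (-0.93 to 0.17), just short of 1.3 fold. Of the Cd4 UMIs of each library, 23.9% and 28.2% were in gated cells, while for the other 9 members this share ran from 80.0% to 92.8% over both libraries. In C1q-high cells Cd4 was found in 157 of 2040 untreated cells, 7.70% (6.58 to 8.94), and 109 of 2263 NAM cells, 4.82% (3.97 to 5.78). There the summed level was 10.6 and 5.90 CPM, a log2 ratio of -0.84 (-1.16 to -0.53). In the C1q-high cells of the untreated library, Cd4 had 223 UMIs and Cd3g 213, while in gated cells Cd4 had 73 and Cd3g 1876, so the Cd4 UMIs of the C1q-high cells did not follow the proportion seen in the gate. At equal depth the shares were 2.89% and 1.55%.

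The Cd4-positive cells of the gate entered it through Cd3e, Cd3g or Ncr1, so that they hold Cd3e or Cd3g is largely set by the rule, which did not use Cd3d. Of Cd4-positive cells, 97.8% without NAM and 97.6% with NAM held Cd3d, 50% (34.9 to 65.1) and 48.8% (32.9 to 64.9) held Foxp3, the regulator that defines regulatory T cells, and 13.0% and 12.2% held a CD8 gene. Conversely, Cd4 was found in 56.1% (39.7 to 71.5) and 47.6% (32.0 to 63.6) of the gated cells with Foxp3. A cell without a Cd4 UMI is therefore not shown to lack the RNA at this depth.

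Lck, the kinase that acts first on the CD3 tails, was among the members found in most gated cells of both libraries. It was in 244 untreated cells, 80.0% (75.1 to 84.3), and 286 NAM cells, 82.2% (77.7 to 86.1), a log2 ratio of the share of 0.04 (-0.21 to 0.29), and at 5.11 and 5.77 UMIs per 10000 in positive cells, a log2 ratio of the level of 0.18 (0.04 to 0.32). The summed level was 363 and 426 CPM, a log2 ratio of 0.23 (0.09 to 0.38). For Lck the difference thus lay in the level more than in the share, although thinning to equal depth gave shares of 65.9% and 72.4%. Lat, the adaptor, was in 52.8% (47.0 to 58.5) and 63.2% (57.9 to 68.3) of cells, at 3.82 and 4.06 UMIs per 10000 in positive cells, and its summed level of 179 and 238 CPM gave a log2 ratio of 0.41 (0.21 to 0.61).

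Cd2 was found in equal shares of both libraries, 70.8% (65.4 to 75.9) and 70.1% (65.0 to 74.9), at a level of 6.02 and 7.18 UMIs per 10000 in positive cells, a log2 ratio of 0.25 (0.11 to 0.39). Its summed level was 382 and 439 CPM, a log2 ratio of 0.20 (0.06 to 0.34). At equal depth, by contrast, the share was 57.0% and 64.4% and the mean UMIs per positive cell 2.67 and 2.74, so how its difference divides between share and level turned with depth. Its positive cells ran from 1 UMI to 35 in untreated and 27 in NAM cells, with medians of 2 and 3.

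Ordered by summed level, the members ran Cd3g, Cd3d, Cd3e, Cd2, Lck, Cd8b1, Cd8a, Lat, Cd247 and Cd4 in the untreated library, and the NAM library differed only in the places of Cd8a and Cd8b1. These are counts of transcript 3′ ends, 1 UMI per molecule, and are not scaled to gene length. The Poisson intervals of Cd3d and Cd3e, of Cd2 and Lck and of Cd8a and Cd8b1 overlapped in both libraries, so these neighbours are not set apart. The intervals of all other neighbours in the order did not overlap in either library.

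Over the gate, 5 of the 10 members were higher in NAM by at least 1.3 fold in CPM (Cd8a, Cd3e, Cd3d, Lat and Cd8b1) and 1 was lower by that much (Cd4). Of the 6624 genes with 50 or more UMIs, 10.3% were higher and 14.2% lower by the same fold. The median log2 ratio of CPM was 0.36 over the members and 0.01 over all genes. Cd3e and Cd3g define the gate, and of the 8 other members 4 were higher and 1 lower by 1.3 fold in CPM, with a median log2 ratio of 0.31. For the share of positive cells, 2 members (Cd8a and Cd8b1) were higher by 1.3 fold, against 6.87% of all genes, and 0 lower, against 12.1%. The median log2 ratio of the share was 0.21 over these 8 members, and -0.01 over all genes. For the level per positive cell 0 members passed 1.3 fold in either direction, against 3.28% of genes higher and 5.81% lower, and the medians were 0.09 and -0.02. With a C1q limit of 0.1% in place of 0.2%, 2 members were higher by 1.3 fold, against 11.9% of 6456 genes, and 1 lower, against 14.6%. At 1.5 fold 1 member was higher (Cd8a), against 3.71% of all genes, and 0 lower, against 6.97%.

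**Figure D3:**
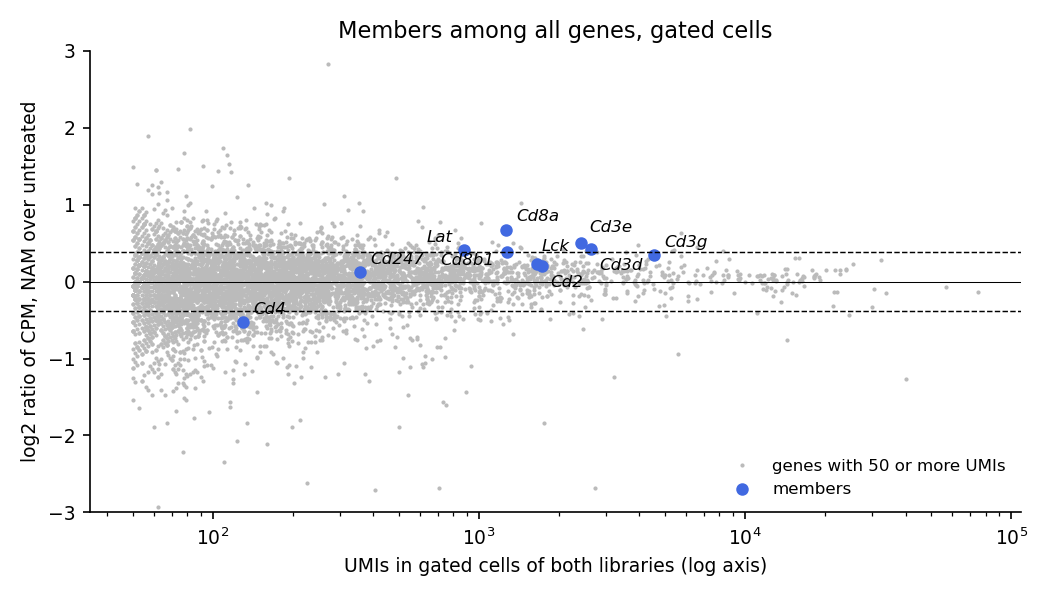
Log2 ratio of CPM, NAM over untreated, in gated cells against the UMIs of the gene in both libraries on a log axis, with 1 grey point per gene with 50 or more UMIs, the members in blue and dashed lines at 1.3 fold. Cd8a, Cd3e, Cd3d, Lat and Cd8b1 lie on or above the upper line and Cd4 below the lower one, and 9 genes with larger ratios lie outside the plotted range.

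The share of the gate that held Ncr1 differed between the libraries. Ncr1, the NKp46 receptor gene of NK cells, was found in 90 untreated gated cells, 29.5% (24.4 to 35.0), and 59 NAM gated cells, 17.0% (13.2 to 21.3), a log2 ratio of the share of -0.80 (-1.30 to -0.31). Without the cells that held an Ncr1 UMI, 215 untreated and 289 NAM cells remained. By the rule of the gate each of these cells held Cd3e or Cd3g, so the values of the CD3 chains in them are partly set by the rule, and the smaller differences there are a description. In these, 0 members were higher by 1.3 fold, against 13.6% of 5851 genes, and 1 was lower, against 15.2%. The median log2 ratio of CPM over the members was 0.05, and 0.01 over all genes. Cd3d was then at a log2 ratio of 0.05 (-0.06 to 0.17), Cd3g at 0.03 (-0.06 to 0.12), Cd3e at 0.15 (0.03 to 0.28), Lat at 0.09 and Cd8b1 at 0.04. Cd8a stayed above 0 at 0.34 (0.17 to 0.51), and Cd4 was lower by more than before, at -0.90 (-1.42 to -0.37). The share of cells with Cd3d had a log2 ratio of -0.02 (-0.30 to 0.27) in this set.

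**Figure D4:**
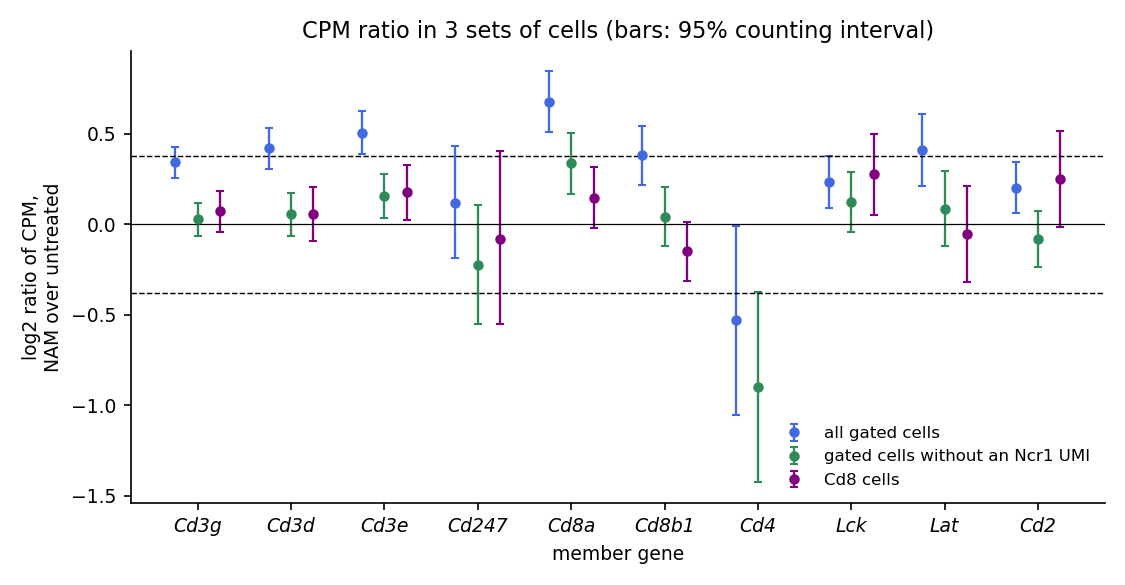
Log2 ratio of CPM, NAM over untreated, of each member in all gated cells (blue), in gated cells without an Ncr1 UMI (green) and in Cd8 cells (purple), with 95% counting intervals and dashed lines at 1.3 fold. The ratios of Cd3d, Cd3g, Lat and Cd8b1 lie near 0 once Ncr1-positive cells are left out, which leaves cells that all hold Cd3e or Cd3g. Cd3e is at 0.15 (0.03 to 0.28) in these cells, while Cd4 lies lower (Cd4 is not drawn for Cd8 cells).

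The gated cells were split by their UMIs into Cd8 cells (Cd8a or Cd8b1), Cd4 cells (Cd4 and neither CD8 gene), Ncr1 cells (Ncr1 and no CD3, CD8 or Cd4 UMI) and the rest. Cd8 cells were 102 of 305 untreated gated cells, 33.4%, and 158 of 348 NAM gated cells, 45.4%, a log2 ratio of 0.44 (0.07 to 0.81). Ncr1 cells were 63, 20.7%, and 29, 8.33%, a log2 ratio of -1.31 (-2.00 to -0.65). Cd4 cells were 40 (13.1%) and 36 (10.3%), a log2 ratio of -0.34 (-1.03 to 0.34), and the rest 100 (32.8%) and 125 (35.9%). Fewer cells of one kind raise the shares of the others, since these are shares of a whole. As shares of the whole library, Cd8 cells had a log2 ratio of 0.47 (0.10 to 0.84) and Ncr1 cells of -1.28 (-1.97 to -0.63).

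**Figure D5:**
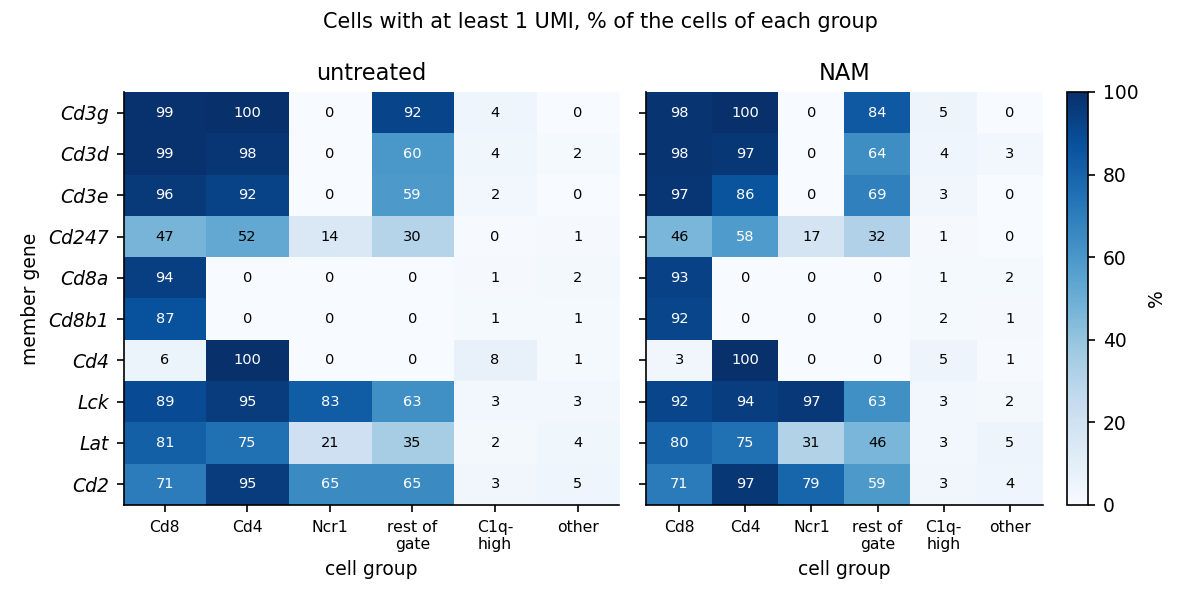
Percent of cells with at least 1 UMI of each member (rows) in the Cd8, Cd4, Ncr1 and remaining gated cells, the C1q-high cells and the other cells outside the gate (columns), for the untreated library (left) and the NAM library (right). Most Cd8 and Cd4 cells hold the CD3 chains, which the gate fixes in part, and Lck, Lat and Cd2 in both libraries, Ncr1 cells hold Lck and Cd2 with little Cd247 and Lat, and the zeros of CD3, CD8 and Cd4 genes in the Cd4, Ncr1 and remaining groups follow from how the groups were defined.

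The gate admitted Cd8 cells through Cd3e or Cd3g, apart from cells with Ncr1 (3 untreated and 1 NAM Cd8 cell held it), so their shares with these chains follow largely from the rule. Cd3d and Cd3g were each found in 99.0% of untreated and 98.1% of NAM Cd8 cells and Cd3e in 96.1% and 97.5%, and all 3 chains together in 96.1% and 94.9%. Of the 9 members with enough UMIs, 0 passed 1.3 fold in CPM, against 16% of 3469 genes higher and 14% lower, and the median log2 ratio was 0.07 over the members and 0.05 over all genes. Lck had the highest ratio at 0.27 (0.05 to 0.50), with 465 and 563 CPM, followed by Cd2 at 0.25 (-0.02 to 0.52) and Cd3e at 0.18 (0.02 to 0.33). The lowest was Cd8b1 at -0.15 (-0.31 to 0.01), and Cd8a was at 0.14 (-0.02 to 0.31). In the NAM library 1 Cd8 cell held 4820 of the 4862 haemoglobin UMIs (Hba-a1 and Hbb-bs) of that group.

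In the Cd4 cells, of which there were few, Cd3g was found in all and its summed level was 1555 CPM in untreated and 1270 in NAM cells, a log2 ratio of -0.29 (-0.51 to -0.08). At equal depth its mean was 6.11 and 6.21 UMIs per positive Cd4 cell, so the lower level in NAM was not found in the thinned counts. Cd2 was found in 38 of 40 and 35 of 36 Cd4 cells at 828 and 882 CPM, against 70.6% and 70.9% of Cd8 cells at 332 and 394 CPM. Cd247 was found in 52.5% (36.1 to 68.5) and 58.3% (40.8 to 74.5) of Cd4 cells and in 47.1% and 46.2% of Cd8 cells. Lat was in 75.0% of Cd4 cells in both libraries and in 81.4% and 79.7% of Cd8 cells. Macrophage and monocyte markers summed to 1909 CPM in untreated and 3896 in NAM Cd4 cells, and their part in the values of these cells was not tested.

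The 8 NK markers, of which Ncr1 defines these cells, summed to 4004 CPM in Ncr1 cells without NAM and 7872 with NAM. Foxp3 was at 0, while Lck and Cd2 were found in most of these cells. Gzma, the granzyme A gene, held most of that sum, with 2493 and 5739 CPM. The 7 other markers came to 1511 and 2133 CPM, of which Ncr1, present by the rule of the group, made up 683 and 981. Among these Eomes stood at 96.9 and 89.1 CPM, and Klra8 was found in 1.59% and 3.45% of the cells. Lck was found in 52 of 63 untreated Ncr1 cells, 82.5% (70.9 to 91.0), and 28 of 29 NAM Ncr1 cells, 96.6% (82.2 to 99.9), and Cd2 in 65.1% (52.0 to 76.7) and 79.3% (60.3 to 92.0). Lat was in 20.6% (11.5 to 32.7) and 31.0% (15.3 to 50.8), below its shares in Cd8 and Cd4 cells, and Cd247 in 14.3% (6.75 to 25.4) and 17.2% (5.85 to 35.8). In CPM, the NAM Ncr1 cells were higher for Cd2, with 192 and 377, a log2 ratio of 0.98 (0.46 to 1.48), and for Lck, with 319 and 480, a log2 ratio of 0.59 (0.16 to 1.01). Ncr1, which all of these cells held, was higher as well, at 0.52 (0.23 to 0.81). At equal depth the log2 ratio of the mean UMIs per positive cell was -0.05 for Cd2, 0.23 for Lck and -0.18 for Ncr1. That of the share was 0.63 (-0.27 to 1.51) for Cd2 and 0.50 (-0.27 to 1.25) for Lck. No background over all genes was computed for these few cells. Macrophage and monocyte markers were lower in the NAM Ncr1 cells, with a summed 2641 CPM in untreated and 1323 in NAM cells, and their part in the ratios was not tested. Of all gated cells with an Ncr1 UMI, 90 without NAM and 59 with NAM, 25.6% (16.9 to 35.8) without NAM and 47.5% (34.3 to 60.9) with NAM also held Cd3g, 15.6% (8.77 to 24.7) and 39.0% (26.5 to 52.6) held Cd3d, and 11.1% (5.46 to 19.5) and 32.2% (20.6 to 45.6) held Cd3e. The cells with both Ncr1 and Cd3g numbered 23 and 28. Seen from the other side, Ncr1 was found in 15 of 207 untreated cells with Cd3d or Cd3e, 7.25% (4.11 to 11.7), and 24 of 291 NAM cells, 8.25% (5.36 to 12.0), shares whose intervals overlap.

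The rest of the gate, with a CD3 UMI and no coreceptor UMI, held a partial set, and 24% of its untreated and 22.4% of its NAM cells also held Ncr1. The part of these Ncr1-positive cells and of myeloid RNA in the values of this group was not tested. Cd3d was in 60.0% of untreated and 64.0% of NAM cells, all 3 CD3 chains together in 51.0% and 52.0%, and Lck in 63.0% and 63.2%. Lat differed most, in 35.0% (25.7 to 45.2) and 46.4% (37.4 to 55.5) of cells and with 94.1 and 147 CPM, a log2 ratio of 0.65 (0.21 to 1.09). In these cells macrophage and monocyte markers summed to 4764 and 5327 CPM, with Lyz2 at 1907 and 3037 and the 9 others at 2857 and 2290, and dendritic markers to 2500.0 and 3088 CPM, nearly all of it H2-Aa. The number of members with a UMI per cell had a median of 8 in Cd8 cells, 7 in Cd4 cells, 5 in the rest and 2 in Ncr1 cells, the same in both libraries, and of 0 in C1q-high cells.

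Other genes of proximal receptor signalling, a list of 32 kinases, adaptors and accessory receptors of which 29 had 50 or more UMIs, had a median log2 ratio of CPM of 0.07 in the gate. Of these 29, 2 were higher by 1.3 fold, 3 were lower and 24 lay between, while 10.3% of all genes in the gate were higher and 14.2% lower by that fold, so nothing is read from the count. Higher were Grap2, an adaptor that links LAT to SLP-76, with 17 and 47 UMIs, 8.66 and 21.3 CPM (interval of the log2 ratio 0.47 to 2.19), and Themis, a T-cell lineage regulator of receptor signalling, with 27 and 72 UMIs and a log2 ratio of 1.24 (0.59 to 1.94). Without Ncr1-positive cells they were at 0.88 and 0.90. Lower were Fyn, the other SRC-family kinase of the complex, with 106 and 69.7 CPM and a log2 ratio of -0.61 (-0.92 to -0.30), the adaptor Sit1 at -0.53 (-1.34 to 0.27) and the RAS activator Rasgrp1 at -0.39 (-0.97 to 0.19). Fyn was at -0.85 without Ncr1-positive cells and at -0.94 in Cd8 cells, where Lck was at 0.27. Zap70, the kinase that docks on phosphorylated CD3 tails, stood at 108 and 114 CPM, a log2 ratio of 0.07 (-0.20 to 0.34), and the LAT partner Lcp2 (SLP-76) at 64.7 and 63.4 CPM.

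Across gated cells, and leaving the members aside, the genes whose level followed the summed CD3 and zeta RNA most closely among 4898 genes, by the weaker Pearson r of both libraries on log values, were Pdcd1 (0.52 in 305 untreated and 0.54 in 348 NAM cells), Lag3 (0.45 and 0.50), Thy1 (0.45 and 0.57), Sdf4 (0.43 and 0.44) and Cd27 (0.41 and 0.53). The most opposed were Tyrobp (-0.78 and -0.71), Fcer1g (-0.68 and -0.62) and Anxa1 (-0.63 and -0.63), and Tyrobp and Fcer1g encode the signalling adaptors that NK and myeloid receptors use in place of CD3. For the CD8 pair the closest genes that are not members were Pdcd1 (0.54 and 0.62) and Lag3 (0.54 and 0.56), both inhibitory receptors, then Gm8369, Cxcr6 and Nkg7. For Cd4, again without members, they were Tnfrsf4 (0.49 and 0.49), Foxp3 (0.39 and 0.34), Tnfrsf18, Ctla4 and Cd6, with r of 0.31 or more in both libraries. Cells of 1 library share its depth and its free RNA, and cells are not replicates, so these values are a description and carry no p. A gated cell without Cd3e and Cd3g is in the gate only through Ncr1, so the rule itself sets CD3 RNA against genes of NK cells, and the opposed genes are partly fixed by it. Among the members, Cd8a followed the CD3 and zeta sum at 0.52 and 0.52, Lat at 0.56 and 0.52, Cd8b1 at 0.51 and 0.53 and Cd2 at 0.36 and 0.33. Cd3e followed the CD8 pair at 0.55 and 0.58, Cd3g at 0.54 and 0.53 and Cd3d at 0.52 and 0.49, while Cd2 and the CD8 pair were nearly unrelated (-0.13 and -0.08).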

How the data were processed

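Single-cell RNA sequencing was performed by the authors on CD45+ cells from tumours of 3 pooled mice per group, 1 library per group, with 10x Genomics 3′ chemistry, and processed with Cell Ranger on mm10 (submitters' processing notes). The deposited values are raw UMI counts per gene and cell, 27998 genes as symbols. The annotation version is not given in the sources used here. Every barcode in the files had at least 1000 genes, and at most 10% mitochondrial UMIs. Cells were kept as deposited, and no doublets were removed.

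UMIs were summed over the cells of each library and divided by the sum of all their UMIs (CPM). A single library per group allows no test. CPM carry exact Poisson intervals, shares exact Clopper-Pearson intervals and ratios exact conditional binomial intervals, at 95%. A gene was counted as higher or lower past 1.3 fold. For equal depth each cell was thinned to 3000 UMIs with seed 1, which left out 0 cells. Named genes were the 10 members, genes of the signalling list past 1.3 fold (at most 6; Zap70 and Lcp2 were added for their function after their values were seen) and the 5 genes most like and 3 least like each anchor among genes found in 10% or more of gated cells. Members and lists were chosen with earlier results of these data known. Gene positions came from GENCODE vM21 by symbol. The interval code was tested on simulated data. All value columns were mapped to a sample. Python 3.11.15, NumPy 2.4.6, SciPy 1.17.1, pandas 2.3.3 and matplotlib 3.10.9 were used.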

Additional observations from a re-analysis of the deposited data

How the results depend on the processing

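The median log2 ratio over the members lay between 0.05 and 0.43 for CPM in 13 alternatives, between -0.01 and 0.28 for the share of positive cells in 12 and between 0.08 and 0.17 for the level per positive cell in 13. Without Ncr1-positive cells the CPM median was 0.048 and the number of members higher by 1.3 fold was 0 in place of 5, against 13.6% of all genes; the cells then left all hold Cd3e or Cd3g by the rule of the gate, which partly sets their CD3 values. That number was 2 with a C1q limit of 0.1% (11.9% of all genes), 1 at 1.5 fold (3.71%), 4 in 3 alternatives, 5 in 4 and 6 in 4. The number of members lower was 0 in place of 1 at 1.5 fold and without cells with 3 or more myeloid UMIs, where Cd4 fell just short at a log2 CPM ratio of -0.37. It was 1 with a stricter gate and no myeloid UMIs, with Cd4 at -0.43. Of 380 recomputed member ratios 358 stayed within the counting interval of the reported ratio, and none reversed a called direction. Of the members within 1.3 fold, the log2 CPM ratio of Cd3g ran from 0.03 to 0.42, past that fold at its upper end, that of Lck from 0.12 to 0.33, of Cd247 from -0.22 to 0.25 and of Cd2 from -0.08 to 0.28. The share of genes past the fold rested on the filter on low counts, with 6.29% higher and 7.10% lower at 200 or more UMIs and 21.1% and 26.5% with no filter (pseudocount 0.5). The gate from Trac, Trbc1, Trbc2 and Ncr1 could not be run. In its place a gate from Thy1, Cd5, Cd6, Cd28, Skap1 and Ncr1 was chosen after seeing the data, as were the settings without the shared barcodes and with both a stricter gate and no myeloid UMIs. No paired analysis was possible because each group had 1 library. Depth limits Cd4 and Cd247, whose positive cells mostly held a single UMI, and 1 library per group leaves the spread between mice unknown.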
